A study of Mus musculus with 16 samples.

Results

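Cajal-Retzius cells were represented by 352 nuclei of the 147873 nuclei (0.238%) obtained by single-nucleus RNA sequencing of the mouse hippocampus. They were chosen from their own counts of unique molecular identifiers (UMIs), each of which stands for 1 captured RNA molecule. A barcode counted as a nucleus with at least 500 UMIs, at least 300 genes and at most 5% mitochondrial UMIs. A nucleus was kept when the transcription factor genes Trp73, Ebf3 and Lhx5 together had at least 2 UMIs, Reln at least 2, Gad1 and Gad2 together at most 1, and Slc17a7 at most 1. Levels of these 7 genes are therefore given as a description of the selection and were not tested between kinds of nuclei.

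The hippocampi came from 16 female mice aged 9 months, with 1 library each, in 4 groups of 4. Mice with intact Ch25h (Ch25h+/+) were either Tau- or Tau+, and so were mice labelled Ch25h-/-. Ch25h encodes cholesterol 25-hydroxylase, which makes the oxysterol 25-hydroxycholesterol. The tau line, the promoter that drives it and the way Ch25h was inactivated are not given in the sources used here. No label beyond the library titles says that the libraries of a group came from separate animals, so p-values measure the spread between these libraries.

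Cajal-Retzius cells are among the earliest-born neurons of the cortex. They settle at its outer surface and along the hippocampal fissure, and they secrete reelin, an extracellular glycoprotein that binds the receptors Vldlr and Lrp8 (ApoER2) on other neurons and acts inside them through the adaptor Dab1. In the neocortex most of them die after birth, while in the hippocampus many persist into adulthood. The p53-family gene Trp73 marks the population that arises at the cortical hem, and these cells release glutamate through the vesicular transporter Slc17a6 (VGLUT2) rather than Slc17a7 (VGLUT1).

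The libraries held 8130 to 11654 nuclei each, with a median of 3846 to 6508 UMIs per nucleus. Over all nuclei, Ch25h had 10 to 39 UMIs in each Ch25h+/+ library and 12 to 33 in each library labelled Ch25h-/-, so its count did not separate the labelled genotypes. In the 352 Cajal-Retzius nuclei it had 0 UMIs. Gm43049, a predicted gene, had 3405 to 5868 UMIs in each Tau+ library and 1 to 12 in each Tau- library. Barcodes shared with another library made up 3.68% of nuclei. Of the Cajal-Retzius nuclei, 8 had a barcode that was a nucleus elsewhere, and 0 were Cajal-Retzius nuclei in 2 libraries. Libraries numbered 1 and 2 in each group held 1390 to 2459 glutamatergic nuclei and those numbered 3 and 4 held 475 to 2115, so this split was kept as an alternative in the tests.

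A library gave 7 to 45 Cajal-Retzius nuclei, with 12855 to 107696 summed UMIs. The median nucleus had 2276 UMIs (669 to 14688) and 1296.5 genes. The nuclei with the highest Scrublet scores were marked as putative doublets, at an assumed rate of 0.8% per 1000 nuclei. This rate set the share of all nuclei marked, 7.47%, and 20 of the Cajal-Retzius nuclei (5.68%) were among them. Trp73 had a UMI in 304 nuclei (86.4%), Ebf3 in 259 (73.6%) and Lhx5 in 66 (18.8%). The most frequent combination was Trp73 with Ebf3 and no Lhx5, in 181 nuclei (51.4%), followed by Trp73 alone in 72 (20.5%). All 3 factors were counted in 33 nuclei, Ebf3 alone in 33, Trp73 with Lhx5 in 18, Ebf3 with Lhx5 in 12 and Lhx5 alone in 3. Reln had a median of 17 UMIs per nucleus (2 to 103), far from the lower limit of the rule in most nuclei.

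At least 1 marker gene that the rule did not use was counted in nearly all of these nuclei. Of 7 such genes (Ndnf, Cacna2d2, Lhx1, its neighbour Lhx1os, Nhlh2, Slc17a6 and Car10), at least 1 had a UMI in 347 nuclei (98.6%), at least 2 in 334 (94.9%) and at least 3 in 297 (84.4%). As a background of like depth, 14040 nuclei with oligodendrocyte markers had library medians of 1493 to 2259 UMIs, against 1595 to 2736 in the Cajal-Retzius nuclei. Ndnf, a secreted neurotrophic factor of layer 1 neurons, had a UMI in 86.4% of Cajal-Retzius nuclei and 1.004% of these background nuclei. Cacna2d2, an auxiliary subunit of voltage-gated calcium channels, had one in 76.7% against 0.77%. The LIM-homeodomain gene Lhx1 was counted in 28.1% against 0.02%, the neuronal helix-loop-helix gene Nhlh2 in 21.3% against 0.02%, and Slc17a6 in 32.4% against 0.79%. Car10, a carbonic anhydrase-related secreted protein, stood at 91.5% against 4.24%. This background is of glia, so it does not set these nuclei apart from other neurons. Against the Reln GABAergic and glutamatergic nuclei described below, Car10 was higher by 1.88 and 1.67 on the log2 scale. Calb2 (calretinin), a marker of these cells in development, was counted in 5.68% and the chemokine receptor gene Cxcr4 in 6.82%.

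Nuclei next to the limits differed in Ndnf, which is given as a description. The 135 nuclei with exactly 2 factor UMIs held Ndnf at 1414 CPM, the usual scaling of counts to the library total, and the 217 with 3 or more held it at 1637 CPM. Among 148 nuclei just outside, with 1 factor UMI, Ndnf stood at 762 CPM and was counted in 68.2%. On the Reln side, 11 nuclei with 2 to 4 Reln UMIs held Ndnf at 184 CPM, and 655 nuclei with 0 or 1 Reln UMI held it at 19.3 CPM. Those 655 nuclei had Slc6a20a, a transporter gene of meningeal and barrier cells, at 110 CPM, against 29.5 CPM in the 352. Not every marker differed this much: Slc17a6 stood at 139 CPM in the 655 and 166 CPM in the 352.

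Markers of other cell types were low in the Cajal-Retzius nuclei. Summed per library, the 9 lists for astrocytes, oligodendrocytes, their precursors, microglia, vascular and meningeal cells, GABAergic neurons, granule cells, pyramidal cells, and ependyma with choroid plexus had medians of 90.0 to 511 CPM. Each of these medians lay below that of all nuclei and below that of empty droplets. The precursor gene Olig2, the endothelial gene Cldn5, the GABAergic genes Dlx2 and Lhx6, and the pyramidal gene Dkk1 had 0 UMIs; the GABAergic and pyramidal lists also hold genes that the rule limited. The list for thalamus, hypothalamus and septum was the exception, at 700 to 1775 CPM per library against a median of 882 in all nuclei. Of its 12 genes 7 were at 0 (Gbx2, Lhx8, Sim1, Otp, Nkx2-1, Irx3 and Irx5), while the nuclear receptor gene Rora alone had 545 to 1618 CPM per library. Against the Reln GABAergic and glutamatergic nuclei described below, 2 of 3 and 2 of 4 tested genes of this list were higher and 0 lower. Of all genes, 12.6% and 10.5% were higher. Lhx2 was higher than in Reln GABAergic nuclei (log2 fold change 4.14 ± 0.31) and Prkcd than in glutamatergic nuclei (1.19 ± 0.35). Of the 352 nuclei, 113 (32.1%) had 5 or more UMIs of at least 1 of the glial, vascular, ependymal, granule or thalamic lists. The thalamic list gave 87 nuclei.

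For comparison within the same libraries, counts were summed per library over 3363 Reln GABAergic nuclei, which have Reln and at least 2 UMIs of Gad1 and Gad2, and over 23152 glutamatergic nuclei with at least 3 UMIs of Slc17a7. edgeR's quasi-likelihood test with the library as a block called genes at an adjusted p (Benjamini-Hochberg) under 0.05, and the rule genes were left out. Against Reln GABAergic nuclei, 1070 of 8468 genes were higher in Cajal-Retzius nuclei (12.6%) and 1986 were lower (23.5%). Against glutamatergic nuclei, 1278 of 12128 were higher (10.5%) and 3638 lower (30%). The median log2 fold change of all genes tested was -0.13 and -0.29. In both comparisons 619 genes were higher, and for 122 of them the 16 Cajal-Retzius libraries lay above every comparator library each time. In simulated counts, 100 genes were changed by 1 on the log2 scale and 100 by 2. Against Reln GABAergic nuclei 65% and 92% were recovered, with 31 false calls. Against glutamatergic nuclei 38% and 86% were recovered, with 155 false calls. In both, false calls made up a larger share of calls than the threshold of 0.05 allows. Against glutamatergic nuclei the 155 false calls outnumbered the 38 and 86 recovered genes together. Far more genes were called in the data than were changed in the simulation, and other numbers of changed genes were not simulated.

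Depth differed between these kinds of nuclei. Library medians were 6714 to 10809.5 UMIs in Reln GABAergic and 8626 to 12298 in glutamatergic nuclei, several times those of Cajal-Retzius nuclei. A comparison chosen after the data were seen therefore used only comparator nuclei under 4000 UMIs, of which there were 212 and 625. Single libraries held 4 to 37 and 2 to 121 of them, and no minimum number was set for these nuclei. Here 790 and 1126 genes could be tested, and calls were nearly even, with 230 higher and 256 lower against Reln GABAergic nuclei and 385 higher and 391 lower against glutamatergic nuclei. The share of calls that were higher was 47.3 and 49.6% here, and 35.0 and 25.997% with all comparator nuclei. Far fewer genes could be tested here, so these shares are not over the same genes. Of the genes called with all comparator nuclei and tested here, 513 of 555 (92.4%) and 690 of 849 (81.3%) kept their sign, and 417 (75.1%) and 555 (65.4%) were also called again. Over all genes tested this way, 29.1% were higher and 32.4% lower than in Reln GABAergic nuclei, and 34.2% higher and 34.7% lower than in glutamatergic nuclei. Gene lists below are given with both sets of comparators where any of their genes could be tested.

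**Figure D1:**
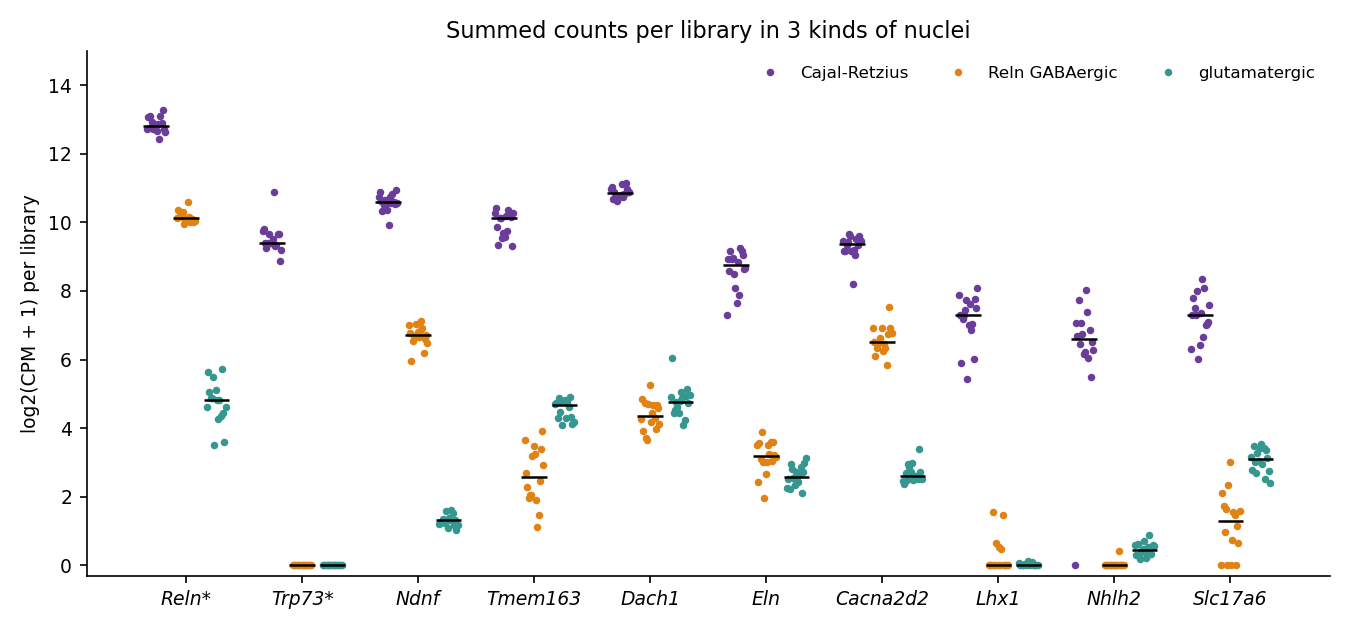
Levels of 10 genes in counts summed over the Cajal-Retzius, Reln GABAergic and glutamatergic nuclei of each library, as log2(CPM + 1) on the vertical axis. Each point is 1 of 16 libraries and each bar is the median of a kind of nuclei. Asterisks mark genes used by the selection rule. Ndnf, Tmem163, Dach1, Eln and Cacna2d2 have all 16 Cajal-Retzius libraries above every comparator library.

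The genes that set Cajal-Retzius nuclei apart most from both comparators, outside the rule, were Ndnf, Tmem163, Dach1, Eln, E130114P18Rik, Gm29683 and Maml3. These 7 were among the 15 largest increases in each comparison, taken over genes with no overlap between libraries and a mean of at least 20 UMIs per Cajal-Retzius library. Tmem163 (GRCm38 chr1:127486546-127679548, protein coding), a zinc transporter of vesicle membranes, had 636 CPM in the lowest Cajal-Retzius library, 1120 at the median and 1371 in the highest. Reln GABAergic libraries had 1.17, 4.99 and 13.99 CPM, and glutamatergic libraries 15.9, 24.4 and 29.0 CPM, so the ranges were far apart. The log2 fold changes were 7.14 ± 0.28 (SE) and 4.90 ± 0.13, with edgeR adjusted p of 6.4e-13 and 1.7e-295. The oligodendrocyte-marker nuclei had a median of 71.6 CPM.

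Dach1 (chr14:97786853-98169765, protein coding) encodes a transcriptional cofactor of the dachshund family. Its 16 Cajal-Retzius libraries held 1573, 1837 and 2258 CPM at the lowest, the median and the highest. The highest comparator library had 65.0 CPM. The log2 fold changes were 6.22 ± 0.14 against Reln GABAergic and 5.54 ± 0.14 against glutamatergic nuclei.

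The RefSeq promoter windows of Tmem163 and Dach1 are shown because these genes had the largest increases over Reln GABAergic nuclei among genes with that many UMIs. Each window holds the 250 bases before the RefSeq start, on the minus strand of GRCm38.p6, at chr1:127678022-127678271 and chr14:98169766-98170015. The Tmem163 window lies inside the gene range given above, so the RefSeq start is not the outer end of that range. The Dach1 window adjoins its gene range. Capitals mark TAATTA, the core of many homeodomain binding motifs, which was searched on both strands.
Tmem163: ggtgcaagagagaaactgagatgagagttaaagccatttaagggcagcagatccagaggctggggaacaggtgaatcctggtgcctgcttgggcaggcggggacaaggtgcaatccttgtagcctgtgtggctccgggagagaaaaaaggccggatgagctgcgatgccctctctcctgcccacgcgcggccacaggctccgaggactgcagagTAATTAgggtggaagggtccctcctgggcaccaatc
Dach1: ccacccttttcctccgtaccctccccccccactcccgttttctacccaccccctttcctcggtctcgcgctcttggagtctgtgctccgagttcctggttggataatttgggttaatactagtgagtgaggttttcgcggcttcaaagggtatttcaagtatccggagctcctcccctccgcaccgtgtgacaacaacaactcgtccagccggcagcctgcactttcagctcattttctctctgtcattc
The motif lies 36 bases before the Tmem163 start and is not in the Dach1 window. Of the 122 genes above every comparator library, 96 had a RefSeq window, and TAATTA was in the windows of 7 (7.29%), against 5.65% of the 27025 genes with a window and 3.19% of the 9250 tested genes with one. The EBF motif, a palindrome searched in the same windows, was in 0 of the 96, in 1.18% of tested genes and in 0.914% of all. A match is a description of the letters in the window, not a binding site.

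Eln (chr5:134702593-134747323), which encodes the elastic-fibre protein elastin, had 156, 430 and 613 CPM in the lowest, median and highest Cajal-Retzius library. No comparator library exceeded 13.8 CPM. The log2 fold changes were 5.36 ± 0.16 and 5.77 ± 0.16. Ndnf (chr6:65671590-65712326) had 967, 1527 and 1969 CPM. Reln GABAergic libraries, which include neurogliaform-type cells that also use this gene, had 61.2 to 137 CPM, and glutamatergic libraries 1.04 to 2.08 CPM. The Ndnf log2 fold change was 3.61 ± 0.12 against the first and 9.42 ± 0.17 against the second. Maml3, a coactivator gene of Notch signalling, was higher than in both by 3.33 ± 0.12 and 3.28 ± 0.13. E130114P18Rik (5.03 ± 0.15 and 5.41 ± 0.15) and the long noncoding RNA gene Gm29683 (3.998 ± 0.13 and 6.02 ± 0.14) completed the set.

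Other genes high against Reln GABAergic nuclei were the transcription factor genes Tshz2 and Nfia, the junction gene Plekha7, the scaffold gene Pdzd2, the Notch coactivator gene Maml2, Thsd7b, the giant cadherin gene Fat3 and Fndc3b, with log2 fold changes of 3.18 to 3.75. Of these Tshz2 did not pass the test against glutamatergic nuclei (-0.07). Against glutamatergic nuclei the further genes were Gm10475, Cacna2d2, Utrn (utrophin, a cytoskeletal linker), the heparan sulfate sulfotransferase gene Hs3st5, the R-cadherin gene Cdh4, the potassium channel-interacting gene Kcnip1 and the RNA-binding protein genes Rbms3 and Rbms1, with 3.11 to 7.07. Rbms3 was lower than in Reln GABAergic nuclei (-0.46), but higher (0.43) than in their nuclei under 4000 UMIs. Gm10475 is annotated antisense to another gene, and strand use in counting is not stated, so its reads cannot be told from those of its partner.

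The genes with the largest decreases had 0 UMIs in all Cajal-Retzius nuclei. They passed the low-count filter and the limit of 20 UMIs per library through the comparator nuclei alone. A ranking by fold puts such genes first, so they are given as a description. Against the floor of 3 counts over the group, their folds are lower bounds. Igf1, the growth factor gene, had 97.7 to 171 CPM in Reln GABAergic libraries and was at least 43.4-fold lower. Elfn1, a postsynaptic adhesion gene of interneurons, was at least 27.8-fold lower, and the myosin gene Myo3b at least 15.5-fold. Sox1ot, which overlaps another gene on its strand, was at least 47.3-fold lower, and Gm28153, Gm14204, Mageb18 and 4930488N15Rik at least 14.4-fold to 25.3-fold. Against glutamatergic nuclei, the immediate early gene Nr4a3 was at least 13.1-fold lower, Robo3, a guidance receptor gene, at least 7.91-fold and the kinase gene Hipk4 at least 7.78-fold. The long noncoding gene 4921539H07Rik was at least 36.3-fold lower, and Gm28153, Muc15, Gm31698 and 4930467D21Rik at least 7.198-fold to 11.1-fold. These bounds cover counting error only, and Gm28153 is annotated antisense to another gene.

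**Figure D2:**
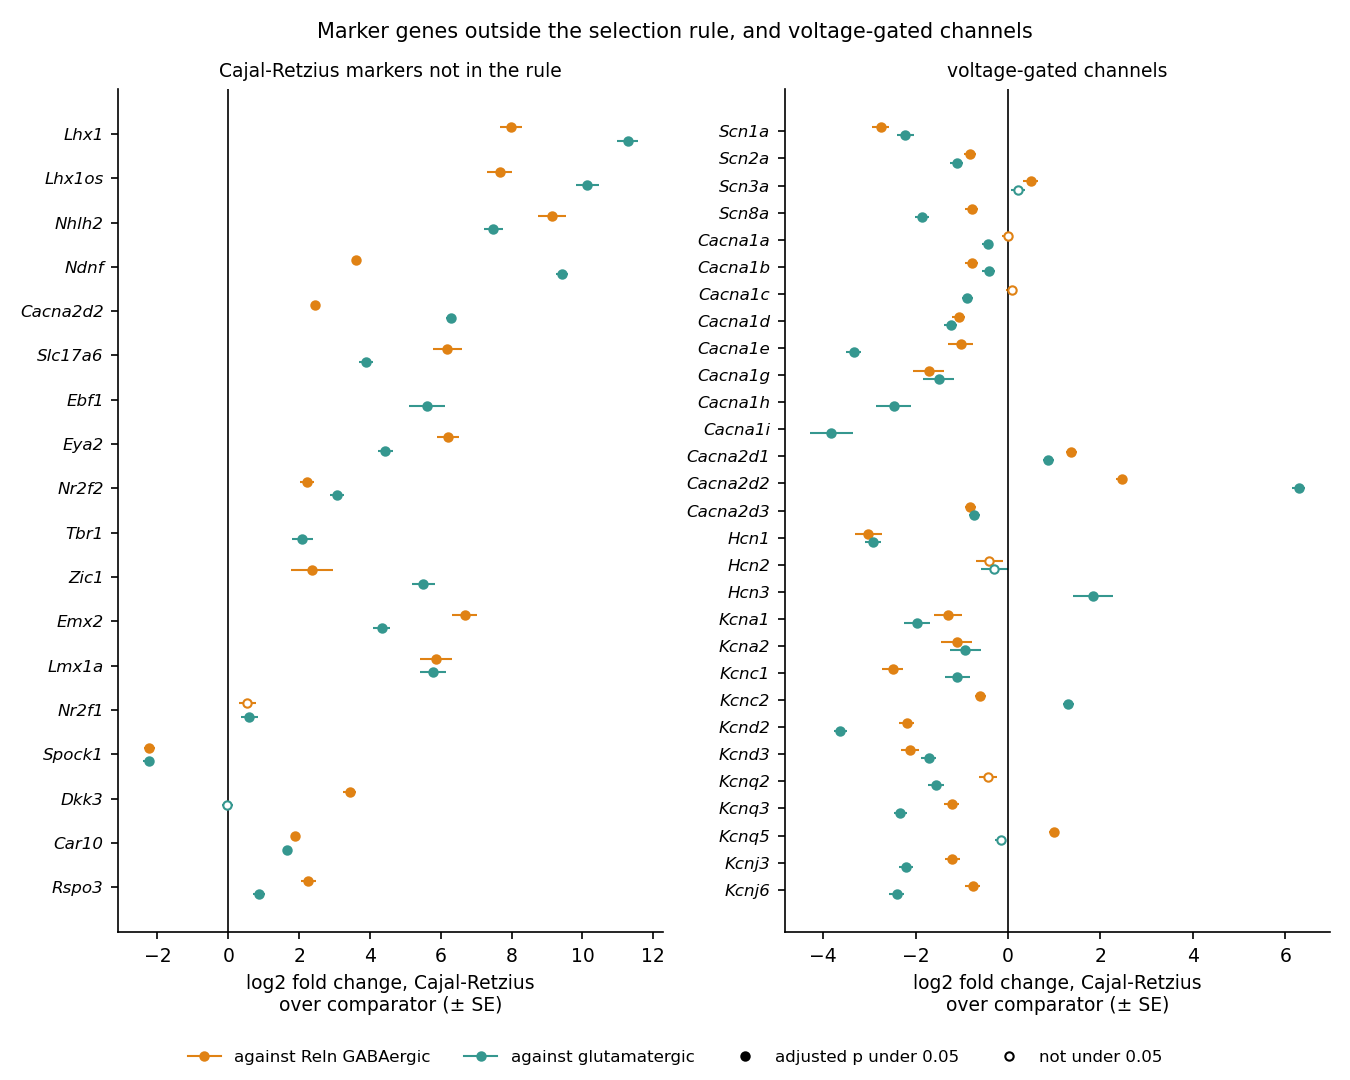
Log2 fold change of Cajal-Retzius over comparator nuclei (horizontal axis, ± SE) for marker genes outside the rule (left, 1 tested gene not drawn) and voltage-gated channel genes (right), 1 gene per line. Filled points passed the test and open points did not. On the left 2 genes were lower in each comparison, of which Spock1 is drawn, and all other filled points lie above 0, while on the right most lie below 0 and Cacna2d1 and Cacna2d2 above.

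Of the marker genes not in the rule, 14 of 17 tested were higher than in Reln GABAergic nuclei and 2 lower, and 16 of 19 were higher than in glutamatergic nuclei and 2 lower, beside 12.6% higher with 23.5% lower and 10.5% with 30% of all genes. Their median log2 fold changes were 3.42 and 4.33. Lhx1 had 42.6, 155 and 270 CPM in the lowest, median and highest Cajal-Retzius library and at most 1.91 CPM in any comparator library. Lhx1os reached 201 CPM, with 0 in the lowest library. Nhlh2 had 0 to 260 CPM with a median of 96.5, and the library at 0 overlapped the comparators. The log2 fold changes against Reln GABAergic and glutamatergic nuclei were 7.98 ± 0.31 and 11.3 ± 0.30 for Lhx1, 7.67 ± 0.35 and 10.1 ± 0.32 for Lhx1os, and 9.14 ± 0.39 and 7.48 ± 0.27 for Nhlh2. Of the lower genes, the proteoglycan gene Spock1 had -2.23 and -2.25. With comparator nuclei under 4000 UMIs, 3 of 4 and 4 of 4 tested markers were higher, beside 29.1% and 34.2% of all genes.

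Transmitter genes differed from both comparators. Slc17a6 had 63.3, 155 and 325 CPM in the lowest, median and highest Cajal-Retzius library, at most 7.05 in a Reln GABAergic and 10.6 in a glutamatergic library. It was higher by 6.19 ± 0.42 and 3.88 ± 0.20 on the log2 scale. Slc32a1, the vesicular GABA transporter gene, had 4 UMIs in all and was lower than in Reln GABAergic nuclei (-4.28 ± 0.43, and -5.17 without Ch25h+/+ Tau- replicate 2). It could pass the low-count filter only through the comparator nuclei, so this decrease is a description. The neuronal glutamate transporter gene Slc1a1 was lower than in both (-1.81 and -2.40). Over the list, 1 of 6 genes tested was higher and 5 lower, and then 2 of 6 higher and 3 lower, beside 12.6% higher and 23.5% lower of all genes, and then 10.5% and 30%. Slc17a7, Gad1 and Gad2, which are on the list and in the rule, were left out of these counts. Shallow comparators gave 2 lower of 2, and 1 lower of 1.

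Of the reelin pathway, Reln itself was left out as a rule gene. Dab1, the intracellular adaptor gene, had 53.3, 377 and 1971 CPM in the lowest, median and highest Cajal-Retzius library, with 1224 to 1690 in Reln GABAergic and 2341 to 2584 in glutamatergic libraries. The highest Cajal-Retzius library lay above every Reln GABAergic library, while the median lay below all of them. The log2 fold changes were -2.41 ± 0.27 and -3.46 ± 0.21, and -2.24 and -2.80 against comparator nuclei under 4000 UMIs. The receptor gene Lrp8 was lower than in Reln GABAergic nuclei (-0.58 ± 0.21) and did not pass against glutamatergic nuclei (-0.31 ± 0.22). Vldlr, with 12 UMIs in all, was lower by -1.80 and -1.52, the ephrin receptor gene Ephb2 only against glutamatergic nuclei (-1.39, adjusted p = 0.18 by edgeR against Reln GABAergic), and its ligand gene Efnb3 against glutamatergic nuclei (-1.22). Vldlr could pass the low-count filter only through the comparator nuclei, so its decrease is a description. Of the list, 2 of 17 genes were higher and 3 lower than in Reln GABAergic nuclei, and 1 of 19 higher and 10 lower than in glutamatergic nuclei. Of all genes, 12.6% and 10.5% were higher in these comparisons, and 23.5% and 30% were lower. With 17 genes, the 3 lower against Reln GABAergic nuclei are near the share of all genes. Shallow comparators gave 0 higher and 1 lower of 2, and 1 higher and 1 lower of 3.

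Genes of the p53 family and of cell death counted 2 higher and 1 lower of 10 against Reln GABAergic nuclei, and 5 higher and 1 lower of 12 against glutamatergic nuclei. Over all genes, 12.6% and 10.5% were higher in the 2 comparisons. Diablo, whose product releases caspases from their inhibitors, had 66.3, 171 and 274 CPM in the lowest, median and highest library, above every Reln GABAergic (at most 17.1) and glutamatergic library (at most 13.97). It was higher by 3.31 ± 0.20 and 3.27 ± 0.19. Mdm2, the ubiquitin ligase gene that restrains p53 and is also its target, was higher by 1.39 ± 0.20 and 0.86 ± 0.19. The survival gene Bcl2 was higher than in glutamatergic nuclei (1.08 ± 0.24) and the neurotrophin receptor gene Ntrk3 lower (-2.19 ± 0.14). Shallow comparators gave 1 higher and 0 lower of 2, and 2 higher and 1 lower of 3. The call of Bcl2 was lost with DESeq2 (adjusted p = 0.0709) and when 41 nuclei with other cell types' markers were left out (adjusted p = 0.11 by edgeR). This set left 311 nuclei and is smaller than the 113 above.

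Among signals that reach Cajal-Retzius cells from the meninges, and guidance genes, Cxcl12 was higher than in both comparators (5.76 ± 0.38 and 4.02 ± 0.28). It had 0 to 161 CPM per library, with a median of 53.04. Cxcl12 encodes the ligand of Cxcr4 and is made by meningeal cells, and the summed vascular and meningeal list had 0 to 584 CPM in these libraries; its part in this result was not tested. The axon guidance receptor gene Robo2 was among the most abundant, with 2534, 3918 and 5255 CPM in the lowest, median and highest library. It was higher by 1.61 ± 0.11 and 2.09 ± 0.12, and by 1.95 and 3.05 against shallow comparator nuclei. Nrp1 (-3.49), Slit1 (-3.40) and Slit2 (-2.99) were lower than in glutamatergic nuclei. The list counted 3 higher and 5 lower of 13, and 4 higher and 8 lower of 14, where 12.6% of all genes were higher and 23.5% lower, and then 10.5% and 30%. Shallow comparators gave 2 higher and 2 lower of 4, and 3 higher and 4 lower of 7, where all genes stood at 29.1% with 32.4%, and at 34.2% with 34.7%.

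**Figure D3:**
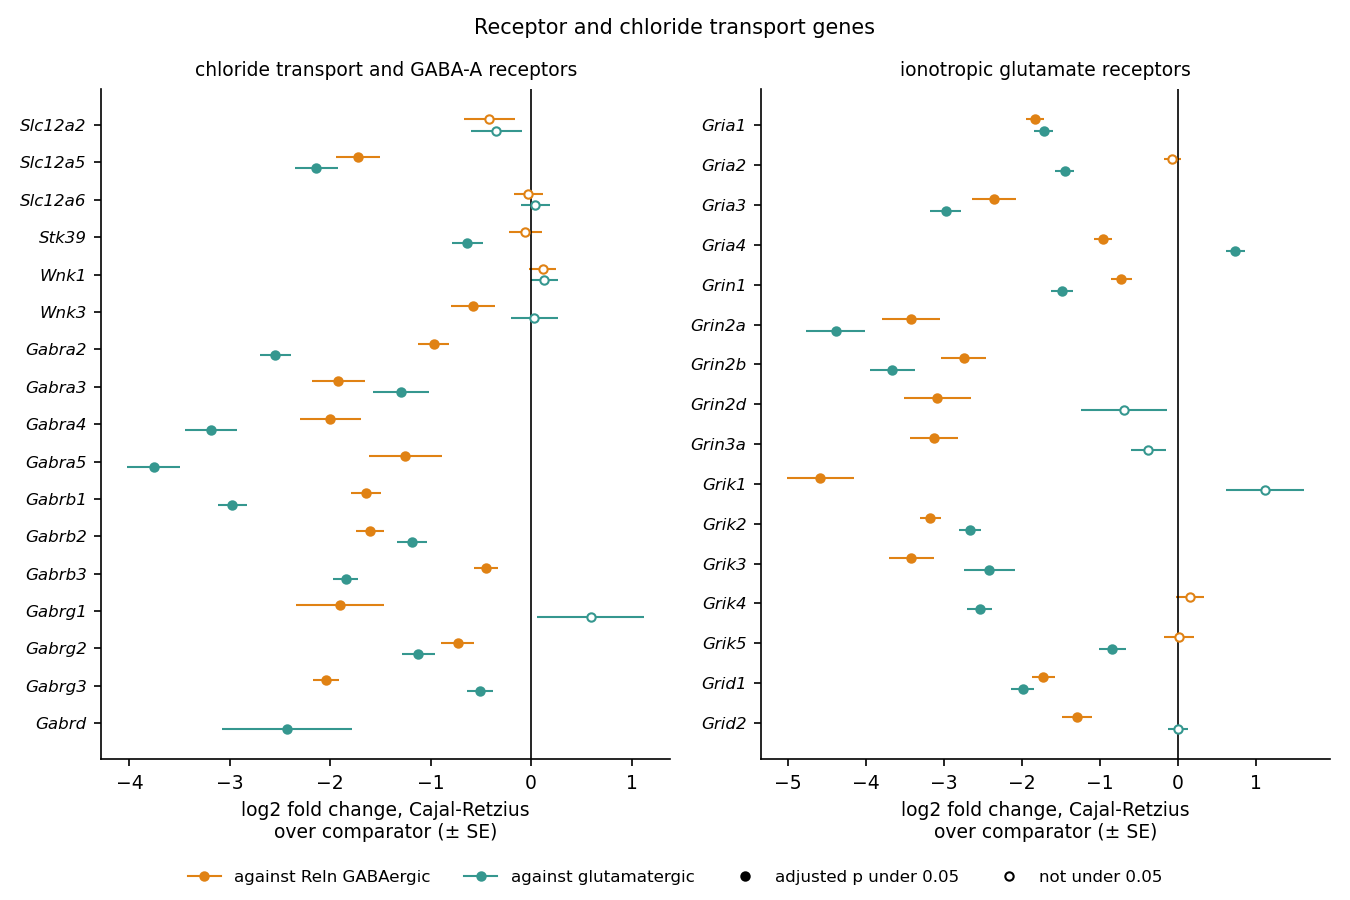
Log2 fold change of Cajal-Retzius over comparator nuclei (horizontal axis, ± SE) for genes of chloride transport and GABA-A receptors (left, 1 tested gene not drawn) and of ionotropic glutamate receptors (right), 1 gene per line. Filled points passed the test and open points did not. On the left 0 genes passed above 0 in either comparison, and on the right Gria4 against glutamatergic nuclei alone did.

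Most receptor genes for GABA and glutamate were lower one by one, beside 23.5% of all genes against Reln GABAergic and 30% against glutamatergic nuclei. Of genes for chloride transport and GABA-A receptors, 13 of 17 were lower than in Reln GABAergic nuclei and 13 of 18 lower than in glutamatergic nuclei, with 0 higher in each and median log2 fold changes of -1.25 and -1.24. Slc12a5 encodes KCC2, the chloride extruder of mature neurons. It had 0, 35.9 and 130 CPM in the lowest, median and highest Cajal-Retzius library, with 96.1 to 140 in Reln GABAergic and 101 to 143 in glutamatergic libraries, so single libraries overlapped. It was lower by -1.72 ± 0.22 and -2.14 ± 0.21. Slc12a2, which encodes the importer NKCC1, did not pass the test (-0.42 ± 0.25 and -0.35 ± 0.25). Slc12a5 and Slc12a2 were singled out after their values were seen.

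The receptor subunit genes Gabra4 (-1.998 and -3.19), Gabra5 (-1.25 and -3.76) and Gabrb1 (-1.64 and -2.98) were lower in both comparisons. With comparator nuclei under 4000 UMIs, 3 of 5 genes tested were lower and 0 higher, and 5 of 8 lower and 2 higher. The 2 higher were Wnk1, a kinase that regulates chloride transport (0.79), and Gabrg3 (0.81), which had been lower with all glutamatergic nuclei (-0.51). Gabrb1 was lower there too, by -1.09 and -2.20.

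Of ionotropic glutamate receptor genes, 13 of 16 were lower than in Reln GABAergic nuclei and 0 higher, and 11 of 16 were lower than in glutamatergic nuclei and 1 higher. The NMDA receptor gene Grin2a had 0, 127 and 642 CPM in the lowest, median and highest Cajal-Retzius library, below all Reln GABAergic (1514 to 1844) and glutamatergic libraries (2203 to 3034). It was lower by -3.42 ± 0.37 and -4.39 ± 0.38. Grin2b was lower by -2.75 ± 0.29 and -3.66 ± 0.29, and the kainate receptor gene Grik3 by -3.41 and -2.42. Grik1 was lower than in Reln GABAergic nuclei (-4.58 ± 0.43) and did not pass against glutamatergic nuclei (1.11 ± 0.50). Gria4, an AMPA receptor gene, was the gene higher than in glutamatergic nuclei (0.74 ± 0.12). Shallow comparators left 10 of 12 lower and 1 higher, and 9 of 11 lower and 2 higher, with Grin2a at -3.46 and -3.82 and Grin2b at -2.20 and -3.13.

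Of voltage-gated channel genes, 18 of 26 were lower than in Reln GABAergic nuclei and 22 of 29 lower than in glutamatergic nuclei, beside 23.5% and 30% of all genes, with 4 higher in each comparison. Cacna2d2 was the largest increase, with 292, 666 and 800 CPM in the lowest, median and highest Cajal-Retzius library, above all Reln GABAergic (56.4 to 186) and glutamatergic libraries (4.17 to 9.57). It was higher by 2.46 ± 0.12 and 6.29 ± 0.14, and the related Cacna2d1 by 1.37 and 0.87. The A-type potassium channel gene Kcnd2 was lower by -2.19 ± 0.16 and -3.62 ± 0.14 and the R-type calcium channel gene Cacna1e by -1.02 and -3.34. The T-type gene Cacna1i, with 4 UMIs, was lower than in glutamatergic nuclei (-3.82). It could pass the low-count filter only through the glutamatergic nuclei, so this decrease is a description. Shallow comparators gave 6 lower and 4 higher of 15, and 10 lower and 7 higher of 19, beside 32.4% and 34.7% of all genes lower, so the first was near the share of all genes. In the second of these, Cacna1a, Cacna1b and Cacna2d3 passed with the opposite sign (0.45, 0.72 and 1.13). Which property of the shallow nuclei goes with this was not tested.

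Synaptic adhesion genes split within the family. Of 33 tested, 7 were higher and 19 lower than in Reln GABAergic nuclei, and of 34, 5 were higher and 21 lower than in glutamatergic nuclei. All genes stood at 12.6% higher with 23.5% lower, and at 10.5% with 30%. The neurexin gene Nrxn3 had 148, 480 and 1400 CPM in the lowest, median and highest Cajal-Retzius library, with 8743 to 11143 and 3730 to 5872 CPM in the comparators. It was lower by -4.51 ± 0.19 and -3.67 ± 0.13. Tenm2 (-2.98 and -3.32) and Tenm3 (-3.22 and -2.49), genes of teneurins, were lower in both, and Slitrk2 lower than in glutamatergic nuclei (-3.68). That value rests on 1 UMI, and without its library, replicate 4 of the group labelled Ch25h-/- Tau-, the fitted value was -9.41. Slitrk2 could pass the low-count filter only through the glutamatergic nuclei, so its decrease is a description. Clstn2, a calsyntenin gene, had 2427 to 4267 CPM per library and was higher by 2.53 ± 0.11 and 1.13 ± 0.12. Shallow comparators gave 4 higher and 12 lower of 17 (all genes 29.1% and 32.4%), and 7 higher and 10 lower of 18 (all genes 34.2% and 34.7%), with Nrxn3 at -3.66 and -2.21 and Clstn2 at 3.40 and 2.07.

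Of the calcium-binding and neuropeptide genes, 3 that mark interneurons had few UMIs. Somatostatin (Sst) had 9 UMIs, Npy 3 and Lamp5 7 in all Cajal-Retzius nuclei, and they were lower than in Reln GABAergic nuclei by -4.9998 ± 0.27, -4.43 ± 0.47 and -3.01 ± 0.41. With so few UMIs these 3 genes could pass the low-count filter only through the comparator nuclei. Their decreases, also where counted in the list, are therefore a description. Ndnf, which that list also holds, was its 1 higher gene, and 6 of 8 were lower. Against glutamatergic nuclei 1 of 6 was higher and 4 lower. Of all genes, 12.6% were higher and 23.5% lower in the first comparison, and 10.5% and 30% in the second. Of this list, Ndnf alone could be tested against shallow comparators. Without Ch25h+/+ Tau- replicate 3 Npy was at -5.71, and without replicate 3 of the group labelled Ch25h-/- Tau- Lamp5 was at -3.72.

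Among genes of microtubule-associated proteins 4 of 19 were higher and 6 lower than in Reln GABAergic nuclei, and 3 of 20 were higher and 9 lower than in glutamatergic nuclei. All genes stood at 12.6% higher and 23.5% lower, and at 10.5% and 30%. Shallow comparators gave 2 higher and 2 lower of 4, and 2 higher and 3 lower of 7. Map2 (0.67) and Map1b (0.50), which bind dendritic and axonal microtubules, were then higher than in Reln GABAergic nuclei, where neither had passed before (0.07 and 0.05). The microtubule destabiliser gene Stmn1 was higher in both (1.78 and 2.01), and Dcx (-3.13 and -1.81) and Dclk1 (-1.60 and -1.94), genes of the doublecortin family, were lower. Mapt, which encodes tau, had 77.8, 272 and 650 CPM in the lowest, median and highest library. It was lower by -0.62 ± 0.13 and -0.93 ± 0.14, and against shallow glutamatergic nuclei it did not pass (-0.32, adjusted p = 0.058 by edgeR). In the list of tau-related genes, 1 of 12 was higher and 5 lower, and then 0 of 12 higher and 7 lower, while shallow comparators gave 0 higher and 2 lower of 3, and 1 higher and 1 lower of 5. Unc5c, a netrin receptor gene, was the largest of these (-4.20 ± 0.30 and -3.73 ± 0.23).

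Genes of the STING, interferon and cholesterol lists could not be tested between groups or against comparator nuclei under 4000 UMIs. Of the Ch25h and STING list, 0 of 6 genes passed against Reln GABAergic nuclei and 1 of 7 was lower than in glutamatergic nuclei, the kinase gene Tbk1 (-0.66). Of interferon-stimulated genes, 0 of 2 and 2 of 8 were higher, beside 12.6% and 10.5% of all genes, the latter Rnf213 (1.46 ± 0.35) and H2-D1 (1.36 ± 0.37), with 25 and 21 UMIs. Their calls were lost in the stricter selection (adjusted p = 0.0685 and 0.198 by edgeR). Of cholesterol synthesis and uptake genes, 0 of 8 passed and 6 of 21 were lower than in glutamatergic nuclei, a share near the 30% of all genes. Hsd17b7, with 2 UMIs, could pass the low-count filter only through the glutamatergic nuclei, so its decrease is a description. It was lower by -2.04 ± 0.78, and its call was lost under 4 alternatives. It was -2.93 without replicate 2 of the group labelled Ch25h-/- Tau+, and also without replicate 3 of that labelled Ch25h-/- Tau-.

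The share of Cajal-Retzius nuclei among all nuclei did not differ between groups beyond the spread of the libraries. It was 0.0814, 0.189, 0.261 and 0.152% in the 4 Ch25h+/+ Tau- libraries and 0.209, 0.305, 0.202 and 0.251% in the Ch25h+/+ Tau+ libraries. In the libraries labelled Ch25h-/- it was 0.191, 0.0776, 0.216 and 0.471% in Tau- and 0.334, 0.406, 0.248 and 0.227% in Tau+. The lowest and the highest library thus both belonged to the group labelled Ch25h-/- Tau-, and all groups overlapped. Over both genotypes the mean was 0.273% in Tau+ and 0.205% in Tau- (difference 0.0678 percentage points, exact permutation p = 0.195, two-sided, adjusted p = 0.343 over 6 effects). Libraries labelled Ch25h-/- had 0.271% and Ch25h+/+ 0.206% (difference 0.0650, exact permutation p = 0.219, adjusted p = 0.343). Within 1 genotype or tau state the exact permutation p was 0.171, 0.486, 0.229 and 0.600, where 4 libraries against 4 cannot go below 0.0286. The tau effects in the 2 genotypes differed by 0.00635 percentage points (exact permutation p = 0.953).

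**Figure D4:**
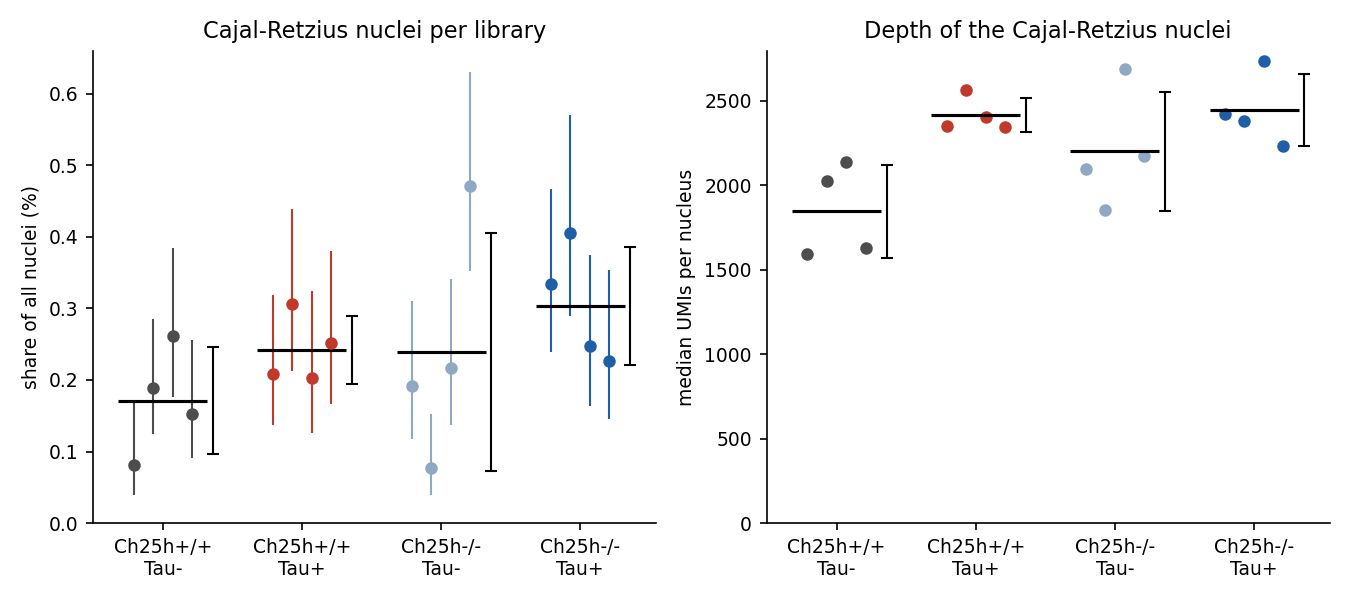
Share of Cajal-Retzius nuclei among all nuclei of a library in percent (left, vertical lines are 95% Wilson intervals, counting error only) and median UMIs per Cajal-Retzius nucleus (right). Each point is 1 library, horizontal bars are group means and brackets their SD (n = 4). The shares overlap between all groups, while the median UMIs of Ch25h+/+ Tau+ libraries lie between 2342.5 and 2561, above all 4 Ch25h+/+ Tau- libraries.

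The share was also taken over neurons and at a fixed depth. As a share of neurons the 6 exact permutation p-values had a lowest adjusted value of 0.514, and tau within Ch25h+/+ changed sign (-0.0903 percentage points). When each nucleus was thinned to 2000 UMIs, which left out 127 Cajal-Retzius nuclei and 33587 nuclei in all, 169 met the rule. The tau difference was then 0.0799 percentage points (exact permutation p = 0.0335, adjusted p = 0.201).

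Cajal-Retzius nuclei of Tau+ libraries had more UMIs and genes per nucleus, short of the adjusted threshold. The library medians were 2232 to 2736 UMIs in Tau+ and 1595 to 2686 in Tau-, with means of 2428 and 2022 (difference 406, exact permutation p = 0.00939, two-sided, adjusted p = 0.0563 over 12 tests). Genes per nucleus averaged 1369 and 1165 (difference 204, exact permutation p = 0.00694, adjusted p = 0.0563). Within Ch25h+/+ the UMI medians did not overlap, at 2342.5 to 2561 in Tau+ and 1595 to 2137 in Tau- (exact permutation p = 0.0286, the smallest possible, adjusted p = 0.0857). Without replicate 3 of the group labelled Ch25h-/- Tau-, which at 2686 UMIs was its deepest, the tau difference was 487 (exact permutation, adjusted p = 0.0049), and it also passed without Ch25h+/+ Tau- replicate 3 (455, adjusted p = 0.0465). For genes, the difference passed when either of these was left out (237 and 227) and when replicate 4 of the group labelled Ch25h-/- Tau+ was (225, exact permutation, adjusted p = 0.049). With any other library left out in turn the UMI difference did not pass, with adjusted p up to 0.11 (exact permutation), nor with nuclei of at least 1000 UMIs (337, adjusted p = 0.0857). Other neurons had the same sign, with 1058 UMIs more in Tau+ for glutamatergic (exact permutation p = 0.0469) and 1055 for Reln GABAergic nuclei (p = 0.0784), while over all nuclei the difference was -250.5 (p = 0.453). Whether these share a source was not tested.

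Within Cajal-Retzius nuclei, 1355 genes could be tested between groups, and edgeR called 0 (0%) in each of 7 contrasts. At an unadjusted p under 0.05 there were 70 genes for tau over both genotypes, 44 for Ch25h over both tau states, 81 and 40 for tau within Ch25h+/+ and within libraries labelled Ch25h-/-, 39 and 60 for Ch25h within Tau+ and within Tau-, and 69 for the interaction. DESeq2 called 0, 0, 0, 0, 2, 1 and 1 genes in the same order. In simulated counts with the same libraries, 100 of 1355 genes were changed by 1 on the log2 scale and 100 by 2. The test for tau over both genotypes recovered 58% and 96% of them, so smaller changes could have been missed. Other numbers of changed genes and the other contrasts between groups were not simulated. The median SE was 0.27 for tau over both genotypes, 0.36 to 0.41 within 1 genotype or tau state and 0.54 for the interaction.

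**Figure D5:**
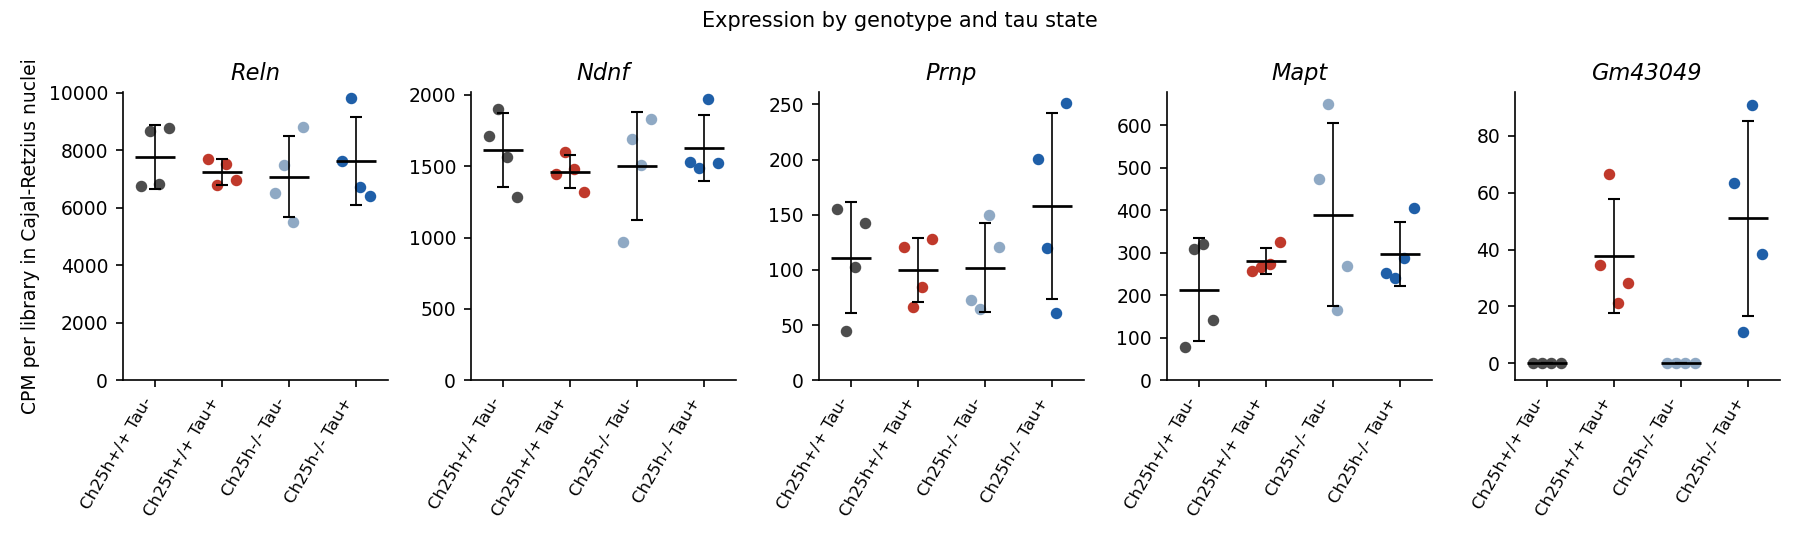
CPM in the summed Cajal-Retzius nuclei of each library for Reln, Ndnf, Prnp, Mapt and Gm43049, by group. Points are libraries, horizontal bars group means and whiskers their SD (n = 4). Reln, Ndnf, Prnp and Mapt overlap between groups, while Gm43049 is at 0 in all 8 Tau- libraries and above 0 in all 8 Tau+ libraries.

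Levels of the genes that the rule used are a description, since every nucleus was chosen by them. Reln had 6388, 7244 and 9803 CPM in the lowest, median and highest Tau+ library and 5498, 7145 and 8803 in Tau- libraries, a log2 fold change of 0.04 ± 0.12. The values of Trp73 (-0.19 ± 0.20) and Ebf3 (0.09 ± 0.21) are of the same kind. Of marker genes outside the rule, Ndnf (0.03 ± 0.14) and Cacna2d2 (0.33 ± 0.18) did not pass the test for tau. Mapt had 240 to 405 CPM in Tau+ and 77.8 to 650 in Tau- libraries (-0.00 ± 0.25). Prnp, the prion protein gene, had 60.6 to 251 CPM in Tau+ and 44.2 to 156 in Tau- libraries and was too low for the test.

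Gm43049 followed the tau label in these nuclei as in the whole libraries, and was chosen for that pattern. It had 25 UMIs, in 8 of 8 Tau+ libraries (10.9 to 90.9 CPM), and 0 in the 8 Tau- libraries, which makes it at least 5.90-fold higher in Tau+ (3 counts taken as the limit for all Tau- libraries together). Empty droplets had a median of 57.2 CPM in Tau+ and 0 in Tau- libraries. The median of the Tau+ Cajal-Retzius libraries, 36.5 CPM, lay below that of free RNA, whose part in the result was not tested.

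The genes that DESeq2 called were named after their values were seen. Adarb2, an RNA-editing family gene and marker of some interneurons, had 17 UMIs in the Tau- and 60 in the Tau+ libraries of Ch25h+/+ mice, and 29 in the Tau- and 7 in the Tau+ libraries labelled Ch25h-/-. For Ch25h within Tau+ its edgeR log2 fold change was -3.30 ± 0.70 (adjusted p = 0.112). The GABAergic list that holds it had 413 to 1093 CPM in Ch25h+/+ Tau+ libraries, above the 0 to 398 CPM of all other groups, and its part was not tested. The synaptic adhesion gene Lrrtm4 had 800 to 2300 CPM in Ch25h+/+ Tau+ and 273 to 696 CPM in libraries labelled Ch25h-/- Tau+. In the same groups the oligodendrocyte precursor list had 128 to 1133 CPM and 38.6 to 116 CPM. The GABAergic list also separated them, and the part of either list was not tested. Pcdh15, a protocadherin gene, had 1 UMI in the Ch25h+/+ Tau- group and 99 in the group labelled Ch25h-/- Tau- (195 to 985 CPM per library). Its edgeR log2 fold change for Ch25h within Tau- was 5.66 ± 1.17 (adjusted p = 0.262).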

How the data were processed

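Nuclei of 16 hippocampi were counted per gene as UMIs. The deposited values are raw whole-number counts, which the authors made with Cell Ranger on mm10: version 3.1.0 per the submitters' processing notes, 4 per the file headers. The annotation and use of strand are not given in the sources used here. Filters, selection and sums per library were computed from these counts (Python 3.11.15, scanpy 1.11.5). Sums were tested with edgeR 4.0.16 in R 4.3.3 (TMM, filterByExpr with a minimum count of 10, quasi-likelihood, Benjamini-Hochberg adjustment over all genes tested), after tests on simulated data. DESeq2 1.42.0 was an alternative. Between kinds of nuclei, the library was a block. Libraries needed at least 5 Cajal-Retzius nuclei, and no minimum was applied to comparator nuclei. Shares and depths were compared by exact permutation tests over libraries (scipy 1.17.1). A floor of 0 counts was set at 3 counts, and intervals cover counting error only.

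Named genes were the 15 largest increases and 8 largest decreases per comparison, among called genes with no overlap and a mean of 20 UMIs per library in the higher nuclei, plus up to 4 called genes of each list. Others were chosen after their values were seen. Members, lists and tests were chosen with earlier results of these data known. Library totals were 51270831 to 84870650 UMIs. Some genes are not reported here.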

Additional observations from a re-analysis of the deposited data

Results flagged for a closer look

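Of 58 sets of 4 libraries examined, 5 held a library that stood apart from the other 3 by Dixon's test, where chance gives about 1 in 20. The 58 include sets of the rule genes Trp73, Ebf3, Lhx5 and Reln, so the count of 5 cannot be read against chance. Trp73 had 813 CPM in Ch25h+/+ Tau+ replicate 2, against 667 to 675 CPM in the others. Trp73 had 1884 CPM in replicate 2 of the group labelled Ch25h-/- Tau-, which held 8 Cajal-Retzius nuclei, against 631 to 730 CPM. Ebf3 had 255 CPM in replicate 1 of that group, against 482 to 520 CPM. In replicate 3 of the group labelled Ch25h-/- Tau+, Ndnf had 1969 CPM, against 1486 to 1530 CPM, and Tmem163 had 636 CPM, against 1148 to 1235 CPM. Trp73 and Ebf3 were used to choose the nuclei, so their values describe the selection and support nothing further.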

How the results depend on the processing

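Among 97 results, each a gene in the comparison by which the naming rule chose it, 2267 values under the alternatives kept their direction and their side of the threshold, 9 lost the call and 0 reversed. The 97 were chosen as genes already called, so this count is a description and not an independent test. Alternatives in which a gene could not be tested are not counted. Genes named only from the lists of other cell types' markers are not among the 97. Outside these 97, Rbms3 against Reln GABAergic nuclei, and Cacna1a, Cacna1b, Cacna2d3 and Gabrg3 against glutamatergic nuclei, were among genes called with the opposite sign against nuclei under 4000 UMIs. Leaving out 1 library gave 2847 to 3070 genes called against Reln GABAergic nuclei and 4665 to 4883 against glutamatergic nuclei. Without a filter on low counts, 5334 of 24961 genes were called against Reln GABAergic nuclei. Comparator nuclei under 4000 UMIs, chosen after the data were seen, gave 486 and 776 calls. Between groups, with 0 genes called by edgeR, no filter (17722 genes) gave 7 for tau, 1 for Ch25h, 9 for tau in Ch25h+/+, 1 for tau in Ch25h-/-, 9 for Ch25h in Tau+, 2 for Ch25h in Tau- and 23 for the interaction. DESeq2 gave 2, 1 and 1 in the last 3. Leaving out 1 library gave 0 to 1 for tau, for tau in Ch25h+/+, for Ch25h in Tau- and for the interaction, 0 to 2 for Ch25h in Tau+, and 0 to 0 for the other 2 contrasts.

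The cause of these changes was not tested. Against comparator nuclei under 4000 UMIs, 513 of 555 and 690 of 849 called genes kept their sign, and 417 and 555 were also called again. Among shares and depths, the sign changed as follows. The share for tau in Ch25h+/+ was -0.0903 percentage points over neurons, and that for Ch25h in Tau- was -0.00927 without Ch25h-/- Tau- replicate 4 (leaving out 1 library, -0.00927 to 0.122). Median genes for Ch25h in Tau+ were -11 at 1000 UMIs or more. They were -7.83 when Ch25h+/+ Tau+ replicate 1 was left out, and -37 when Ch25h-/- Tau+ replicate 3 was (range -37 to 59.7). Median UMIs were then -68.9 (range -68.9 to 99.1). For tau over both genotypes, leaving out 1 library gave 0.0409 to 0.107 for the share, 348 to 487 for median UMIs and 177 to 237 for median genes, and 0.0263 to 0.0919 for the share by Ch25h. No paired analysis was possible because the replicate numbers were given in accession order and pair no single libraries. The split of libraries 1 and 2 against 3 and 4 as a term in edgeR gave 0 genes called in each of the 7 contrasts (3 for the split itself), and permuting within the split gave p = 0.221 for tau and 0.144 for Ch25h (exact permutation, share of nuclei). The 7 to 45 nuclei per library limit which genes can be tested between groups.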
